A study of Mus musculus with 57 samples.

Results

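Mouse embryos collected 14 and 17 hours after fertilization were compared by total RNA sequencing, over the 12451 of 59119 table rows (genes and loci) that reached 1 FPKM in 2 of the 4 columns at these times. FPKM counts sequenced fragments relative to transcript length and library size. Both groups were wild-type BDF1 embryos, made by in vitro fertilization with sperm of BDF1 males through a hole in the egg coat, and the labels of these samples name no treatment. Each time has 4 labelled samples, replicates 1 and 2 and an addition to each, but 2 table columns, and a sample is a pool of about 150 to 200 embryos in the protocol for developmental stages. The 17 h column names say "cat" and the 14 h names "merge", so this difference in naming and the time cannot be told apart between them. Embryos of 20 h from the same series share the statistical fit, and their column names say "merge" like those of 14 h. Changes from 14 to 20 h, given below for some rows, compare columns of the same naming but use the same 14 h columns. The part of the naming in the changes to 17 h was not tested. Libraries were taken from whole embryos, and FPKM is relative to the library, so the amount of RNA per embryo was not measured. A change in FPKM can hold making, loss and shifts in the rest of the library. The rows just inside the limit of 1 FPKM were XLOC_003078, Gm18629 and XLOC_039807, each with a second highest value of 1 FPKM, and the nearest outside were Fgf10 (0.9994), XLOC_047690 (0.9992) and Olfr1104 (0.9987).

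At these hours the mouse embryo is a single cell with 2 pronuclei. It replicates its DNA, lives largely on RNA that the oocyte stored, and begins a low and widespread transcription that precedes the main activation of the embryonic genome at the 2-cell stage. The stored RNA is dismantled in steps, by shortening of poly(A) tails and decay, and some of it is first held back from translation. The oocyte's chromatin factors also reset the paternal genome, for which Tet3, the enzyme that oxidizes methylated cytosine in the zygote, is the textbook case.

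Of the 12451 rows, 2593 (20.8%) were called higher and 2121 (17%) lower at 17 h, at an adjusted p under 0.05 in limma, and 39.8% of protein-coding rows were called in either direction. Leaving out 1 column lowered the tested rises from 2628 to between 1419 and 1713 and the falls from 2124 to between 1161 and 1630, both lowest without 14 h replicate 2. Most of these changes were small: 568 rises and 669 falls reached 0.5 on the log2 scale, 75 and 61 reached 1, and 14 and 5 reached 2. Columns of the 2 times did not overlap for any of the 75 and 61 rows. Of the 75 rises 37 were small RNA rows, 12 XLOC rows (loci in the authors' own numbering), 11 pseudogenes and 11 protein-coding genes. Of the 61 falls 46 were protein-coding, a share close to the 9183 of 12451 among all described rows. With columns scaled by the median of ratios, 1873 of the tested rows were higher and 2696 lower, against 2628 and 2124 as deposited, so the balance of rises and falls depends on the scaling: 41% of calls were then higher, against 55.3%. The median of all described rows was 0.05 as deposited and -0.01 with that scaling.

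**Figure D1:**
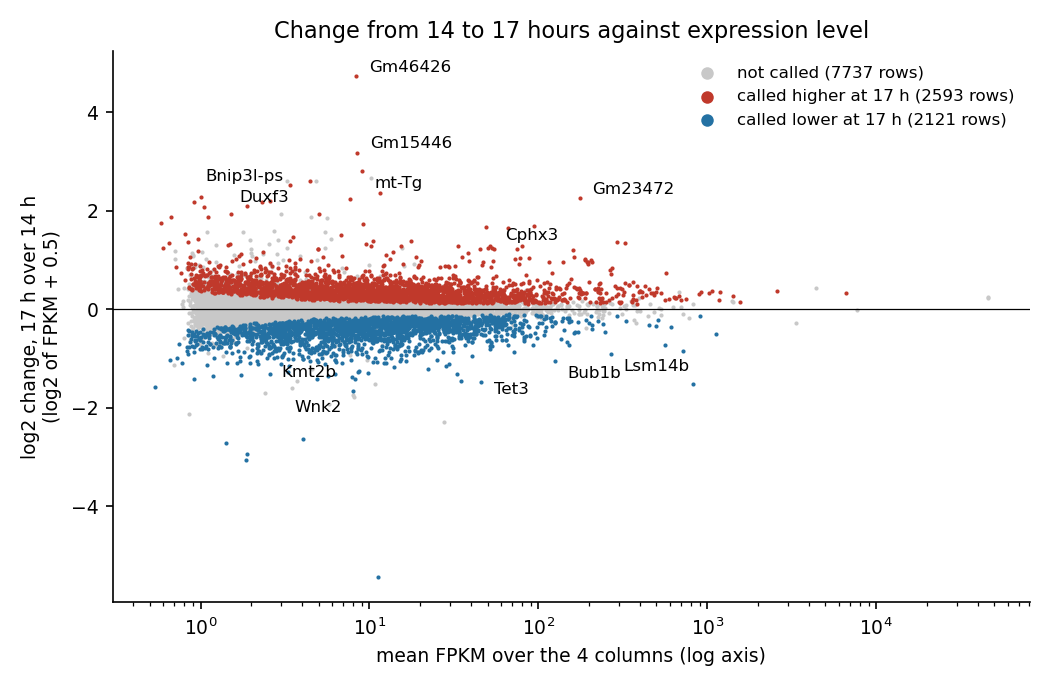
Log2 change from 14 to 17 h against mean FPKM of the 4 columns (log axis), 1 point per row, with rows called higher in red, lower in blue and the others in grey. Most called rows lie within 1 of zero, and the labelled genes are among those described in the text.

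GC content of the transcript moved with the change, and this touches every group of genes below. Across 9183 protein-coding rows Spearman's rho between GC percent of the longest transcript and the log2 change was -0.60. These rows come from the same 4 columns and are not independent replicates. Over 10 groups ordered by GC, the lowest had 474 of 919 rows called higher and 23 lower, and the highest had 7 of 918 higher and 487 lower. Median changes ran from 0.26 in the first to -0.31 in the last. The same slope showed in each of the 4 pairings of a 17 h with a 14 h column, with rho from -0.50 to -0.65. The 14 h replicates differed from each other along GC too (rho 0.41), the 17 h replicates hardly (0.04) and the 20 h replicates little (0.09). Whether it belongs to the RNA or to the libraries was not tested.

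**Figure D2:**
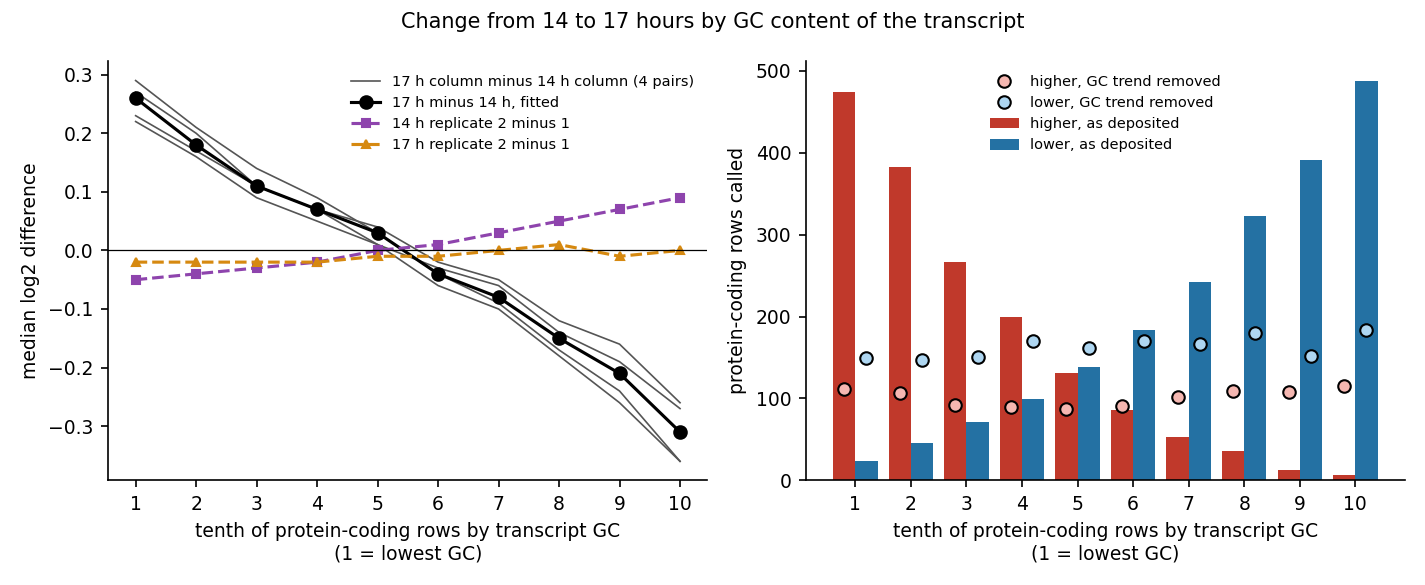
Left, median log2 difference in 10 groups of protein-coding rows ordered by transcript GC, for 17 h minus 14 h (black), its 4 pairings of columns (grey) and replicate 2 minus 1 at 14 and at 17 h (dashed). Right, rows called higher (red) and lower (blue) in each group, with circles for the fit in which the GC trend was removed. Medians run from 0.26 to -0.31, and the counts of calls level out in the circles.

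For this reason a second fit was made in which the trend of every column with GC was subtracted, chosen after the data were seen. Its values are given beside list counts. For genes printed with values they are given where the fit ended the call or moved the change by over 1.5 times. Several genes named without values moved by as much, among them Bub1, Mad2l1, Chek1 and Edc4. The second fit covers the 10909 described rows with a known transcript. There 1384 rows (12.7%) were higher and 1709 (15.7%) lower. Of the 2593 rises 1002 were called again, 1144 were not called, 1 was lower and 446 had no GC value. Of the 2121 falls 1275 were called again, 804 were not called, 6 were higher and 36 had no GC value. A further 376 rows were higher and 433 lower only in that fit. Among the 9183 protein-coding rows, the background for the lists of genes below, 17.9% were higher and 21.8% lower as deposited, and 1013 were higher and 1629 lower in the second fit. With median-of-ratios scaling 1096 of these rows were higher and 2541 lower, and list counts with that scaling are to be read beside this. Below, "GC-corrected" names values of the second fit.

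Annotated starts of 4 genes are shown first as examples of the patterns that follow, a transient peak (Cphx1, Gm15446), an onset (Duxf3) and a fall (Tet3). Each runs 5′ to 3′ from 250 bases before to 50 after the start in RefSeq on GRCm38.p6, and capitals mark matches on either strand to 4 motifs: TATAAA (the TATA box), CCAAT (the CCAAT box), GGGCGG (the GC box) and CACGTG (the E-box).
Cphx1, chr14:25942294-25942593, plus strand: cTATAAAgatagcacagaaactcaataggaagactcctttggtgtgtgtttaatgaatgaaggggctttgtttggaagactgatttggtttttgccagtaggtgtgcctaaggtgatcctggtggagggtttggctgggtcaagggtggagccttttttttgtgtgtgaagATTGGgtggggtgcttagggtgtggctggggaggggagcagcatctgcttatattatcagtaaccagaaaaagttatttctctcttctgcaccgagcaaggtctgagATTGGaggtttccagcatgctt
Gm15446, chr5:109933313-109933612, plus strand: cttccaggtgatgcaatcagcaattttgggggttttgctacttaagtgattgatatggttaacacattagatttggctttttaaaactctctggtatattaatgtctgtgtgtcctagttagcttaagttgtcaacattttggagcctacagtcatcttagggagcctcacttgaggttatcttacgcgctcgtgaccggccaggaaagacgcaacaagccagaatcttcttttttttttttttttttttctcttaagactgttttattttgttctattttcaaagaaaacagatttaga
Duxf3, chr10:58233040-58233339, minus strand: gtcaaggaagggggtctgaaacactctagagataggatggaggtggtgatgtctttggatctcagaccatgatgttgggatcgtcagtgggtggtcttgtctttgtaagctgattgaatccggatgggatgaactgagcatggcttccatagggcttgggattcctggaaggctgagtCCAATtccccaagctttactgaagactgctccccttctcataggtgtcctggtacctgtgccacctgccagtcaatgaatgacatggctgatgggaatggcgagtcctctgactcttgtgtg
Tet3, chr6:83441629-83441928, minus strand: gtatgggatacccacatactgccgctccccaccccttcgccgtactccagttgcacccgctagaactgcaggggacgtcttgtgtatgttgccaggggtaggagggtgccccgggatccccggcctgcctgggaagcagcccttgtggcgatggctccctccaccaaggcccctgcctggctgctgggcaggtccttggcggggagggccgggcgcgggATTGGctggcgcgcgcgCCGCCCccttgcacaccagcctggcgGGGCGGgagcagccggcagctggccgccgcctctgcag
In the annotation of the measured rows the outermost starts lie elsewhere, at 25938304 (Cphx1), 109923400 (Gm15446), 58232675 (Duxf3) and 83459084 (Tet3). Which start was in use in these embryos was not tested. The Tet3 start shown is 71.3% GC with 22 CpG and 2 matches to GGGCGG. Those of Cphx1 (46.3% GC, 1 CpG), Gm15446 (36.3%, 5 CpG) and Duxf3 (51%, 3 CpG) have none. Among the 27026 promoters listed, GGGCGG is held by 35.9%. TATAAA is held by 14.2% of them, CCAAT by 37.9% and CACGTG by 7.24%.

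A set of rows peaked at 17 h. Gm15446, a predicted gene on chromosome 5 (109923400 to 109943936), was at 1.28 and 1.27 FPKM at 14 h, 14 and 17.3 at 17 h and 1.65 and 1.52 at 20 h. Its columns do not overlap, and the change from 14 to 17 h was 3.18 ± 0.11 (SE; adjusted p = 0.00019; GC-corrected 2.94). The pseudogene Gm46426 on chromosome 13 (66281136 to 66284067) went further, from 0.139 and 0.128 to 14.6 and 18.6, and stood at 0.309 and 0.181 at 20 h. Its rise of 4.74 ± 0.15 was the largest among described rows. On the same chromosome and strand, 2410141K09Rik (66418114 to 66441118) had a mean of 0.606 ± 0.016 FPKM (SD, n = 2) at 14 h, 4.56 ± 0.48 at 17 h and 0.93 ± 0.17 at 20 h, a gene picked out after its values were seen. These rows were near their 14 h level again at 20 h, and Gm15446 and Gm46426 were not called between 14 and 20 h in limma (0.23 ± 0.11 and 0.23 ± 0.15, adjusted p = 0.14 and 0.27). A value that is high at 17 h alone follows the column naming as well as the time.

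Homeobox genes of the Cphx group, known from the oocyte and early embryo, followed the same course at higher levels. Cphx1 was at 27.6 and 25.8 FPKM at 14 h, 58.5 and 68.2 at 17 h, and 26.6 and 26.3 at 20 h. Changes to 17 h were 1.23 ± 0.08 for Cphx1, 1.25 ± 0.08 for Cphx2 and 1.24 ± 0.08 for Cphx3, all on chromosome 14 and each with an adjusted p of at most 0.00055 and a GC-corrected value of at least 1.15. Between 14 and 20 h Cphx1 differed by -0.01 ± 0.08. The 3 genes are not independent: 100% of the shorter transcript of each pair lies in blocks shared with the other, the promoter windows of Cphx2 and Cphx3 are identical, and Cphx1 shares 296 bases of its own with them. Reads may be split between them by the counting.

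Nlrp4g, annotated as a pseudogene of the oocyte NLR family on chromosome 9 (124348872 to 124356970), was at 54.4 and 52.3 FPKM at 14 h and at 97.9 and 103 at 17 h, then at 63.3 and 62.7. The rise was 0.91 ± 0.04 (GC-corrected 0.70). The pseudogene Gm47180 lies just upstream of it on the same strand (124338979 to 124347160) and went from 23.3 and 23.4 to 74.1 and 75.8, with 24.4 and 26.5 at 20 h. Its change was 1.66 ± 0.05 (GC-corrected 1.39). Both rows were thus highest at 17 h, and the columns of the 3 times do not mix.

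In C57BL/6 oocytes and embryos of the stage series, which share no sample with the time series, these rows were high in the zygote. Gm15446 stood at 1.02 and 0.837 FPKM in MII oocytes, 18.8 and 13.5 in zygotes and 1.1 and 0.964 in early 2-cell (E2-cell) embryos. Gm46426 was at 0.0234 and 0.0336, 16.9 and 6.45, and 0.0906 and 0.222 in the same order. Cphx1 had 25.4 and 20.6 in MII oocytes, 72.7 and 63.4 in zygotes and 15.9 and 14.6 in E2-cell embryos. Gm47180 was at 36.4 and 32.9, then 115 and 103, then 28.9 and 29.6. The zygote columns, whose names say neither "cat" nor "merge", thus lie above those of both neighbouring stages for all 4 rows. Of the 11 protein-coding rows that rose by 1 or more, both zygote columns were above both MII columns in 8, against 1688 of 9183 (18.4%) for all described protein-coding rows. Cphx1, Cphx2 and Cphx3, which are not independent, are all among these 8. So are Duxf3 and AW822073, whose transcripts are largely alike. These last rows were not high in the zygote columns, at 0.103 and 0.0545 FPKM for Duxf3 and 0.16 and 0.163 for AW822073, below the limit of 1 FPKM.

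Rows of the Dux locus on chromosome 10 began to rise instead. Dux proteins are double homeobox factors that switch on 2-cell genes and the MERVL retrovirus. Duxf3 was at 0.314 and 0.35 FPKM at 14 h and 2.32 and 3.07 at 17 h, with 5.55 and 6.03 at 20 h, and its change to 17 h was 1.93 ± 0.13 (adjusted p = 0.00065, and 0.00057 GC-corrected). From 14 to 20 h, between columns of the same naming, it was 2.92 ± 0.13 (adjusted p = 9.8e-05), in a comparison that called 39.2% of tested rows. The adjacent pseudogene Gm10807 (58227857 to 58228651) went from 0.568 and 0.463 to 3.79 and 4.4, a change of 2.18 ± 0.13. AW822073 (58222972 to 58224930), picked out after its values were seen, had a mean of 0.403 ± 0.062 at 14 h and 3.36 ± 0.53 at 17 h. Its transcript shares 96.7% of its length with Duxf3 in matching blocks, and Gm10807 shares 86.8%, so the 3 rows may draw on shared reads. In the stage series Duxf3 was at 0.103 and 0.0545 in zygotes and 9.27 and 9.05 in E2-cell embryos, a course unlike that of Gm15446.

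Copies of Obox4 pseudogenes on chromosome 7 behaved like the Dux rows, also chosen after their values were seen. Obox4-ps17 had a mean of 0.402 ± 0.19 FPKM at 14 h, 1.54 ± 0.084 at 17 h and 5.58 ± 0.16 at 20 h. Obox4-ps16 and Obox4-ps23 rose by 1.07 and 1.36. All 3 were at 0 in both zygote columns and at 18.2 to 25.3 in E2-cell embryos. Of the list of 2-cell and early activation genes, 21 of 55 were described, 12 higher and 1 lower with a median of 0.31 (GC-corrected 10 and 0, or 11 and 1 at an unadjusted p under 0.05 in limma). Beyond Duxf3 and the Cphx genes these were Duxbl1, Duxbl2, Klf17, Rfpl4, Hspa1a, Hspa1b, Tcstv1 and Arg2, of which Hspa1a, Tcstv1 and Arg2 lost the call without 14 h replicate 1 (adjusted p = 0.054, 0.068 and 0.069) and without 17 h replicate 2 (0.064, 0.16 and 0.073). Tcstv1 and Arg2 were not called GC-corrected, nor from 14 to 20 h in limma (0.25 ± 0.09 and 0.07 ± 0.04, adjusted p = 0.064 and 0.23). Duxbl2 went from 4.36 and 4.09 FPKM to 5.9 and 6.43 (0.49 ± 0.07). It was at 5.07 and 4.83 at 20 h and not called from 14 to 20 h (0.21 ± 0.07, adjusted p = 0.061 in limma). Zscan4d, of the family that marks the 2-cell stage, had means of 1.57 ± 0.029 and 1.84 ± 0.059 (0.17, adjusted p = 0.23; GC-corrected -0.02).

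The inducible heat shock genes Hspa1a and Hspa1b are among the earliest genes transcribed in the mouse zygote. Hspa1b went from 4.97 and 5.11 FPKM at 14 h to 7.46 and 8.98 at 17 h, and was at 5.38 and 5.27 at 20 h. Its rise of 0.65 ± 0.09 was 0.93 GC-corrected, since its transcript is 58.1% GC. Hspa1a rose from 2 and 2.31 to 3.02 and 3.27 (0.46 ± 0.09, GC-corrected 0.76), and was at 2.51 and 2.44 at 20 h. From 14 to 20 h limma called neither Hspa1a (0.17 ± 0.09, adjusted p = 0.19) nor Hspa1b (0.07 ± 0.09, adjusted p = 0.56). The 2 transcripts share 78.1% of the shorter length in matching blocks. Other heat shock and chaperonin genes moved both ways, 13 of 58 higher and 7 lower (GC-corrected 6 and 9, 7 and 11 with median-of-ratios scaling, and 5 higher and 3 lower at the lowest, without 14 h replicate 2), with Hspa8, the constitutive form, falling by 0.40 ± 0.07 and Dnajb11 by 0.51 ± 0.06.

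**Figure D3:**
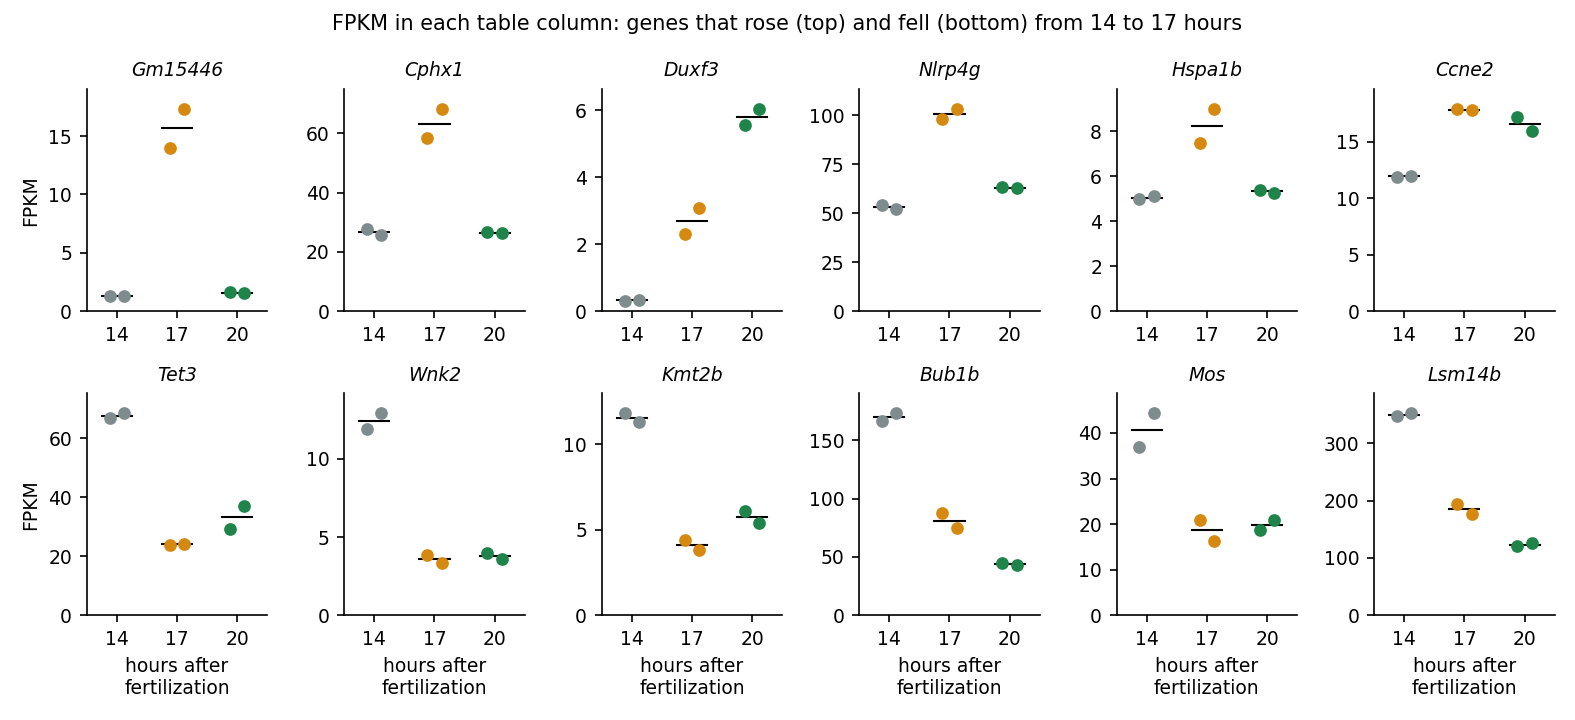
FPKM in both columns at 14, 17 and 20 h (points) with the mean (line), for 6 genes that rose and 6 that fell from 14 to 17 h; each axis starts at 0. Gm15446, Cphx1, Nlrp4g and Hspa1b are highest at 17 h, Duxf3 is highest at 20 h, and the columns of 14 and 17 h do not overlap in any panel.

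Several oocyte gene families rose together by small amounts. Of the list of oocyte growth and identity genes 25 of 49 were higher and 10 lower, with a median of 0.16 (GC-corrected 22 and 10). The rises included Tcl1b1, Tcl1b3 and Tcl1b4 and Oog1, Oog2 and Oog3. Oosp3, an oocyte-secreted protein gene, went from 323 and 312 FPKM to 427 and 460 (0.48 ± 0.05; GC-corrected 0.21). Spin1, an abundant maternal chromatin reader, was at 1315 and 1269 at 14 h and 1516 and 1597 at 17 h (0.27 ± 0.04; GC-corrected 0.15). All 8 described Pramel, Pramef and Oog genes were higher, 5 of them GC-corrected, 5 with median-of-ratios scaling and 5 or 6 with any 1 column left out, and Oog2 gave the largest value with 116 and 109 going to 152 and 152 (0.43 ± 0.04; GC-corrected 0.23). The 4 described Obox genes, oocyte homeobox factors, were higher, 2 of them GC-corrected, among them Obox5 from 351 and 340 to 427 and 453 (0.35 ± 0.04; GC-corrected 0.15). Copies within these families are alike, so reads may be shared.

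The subcortical maternal complex is a protein lattice of the egg that the embryo needs to divide. Of this list with the Nlrp genes, 8 of 17 were higher and 4 lower (GC-corrected 5 and 2). Nlrp9c went from 58 and 58 FPKM to 83.7 and 84.5 (0.53 ± 0.03; GC-corrected 0.27) and Nlrp4f from 449 and 411 to 580 and 577 (0.43 ± 0.05; GC-corrected 0.23). Khdc3, a core subunit, was lower, 13.8 and 14.4 against 9.29 and 8.97 (-0.60 ± 0.12; GC-corrected -0.32, adjusted p = 0.07; 0.062 without 14 h replicate 2 and 0.055 without 17 h replicate 2). Zbed3 fell by 0.50 ± 0.07 from 1281 and 1371 to 987 and 888. It was at 1226 and 1138 at 20 h and not called from 14 to 20 h in limma (-0.17 ± 0.07, adjusted p = 0.11). All 8 rises were Nlrp4 and Nlrp9 rows. Without 14 h replicate 2 the falls were 2.

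Some secreted factors and egg coat genes of the oocyte fell. Gdf9, the growth factor by which the oocyte steers its follicle, stood at 662 and 741 FPKM at 14 h and 446 and 400 at 17 h (-0.73 ± 0.07; GC-corrected -0.62). Bmp6 fell by 0.52 ± 0.08 (GC-corrected -0.25). Of 19 described egg coat, fusion and egg activation genes 3 were higher and 9 lower, and the GC-corrected counts were also 3 and 9. Zp3, the coat protein that binds sperm, went from 78.7 and 92.4 to 59.1 and 57.4 (-0.55 ± 0.07; GC-corrected -0.33). Astl, the protease ovastacin that hardens the coat, went from 61.6 and 67.3 to 41.2 and 39.4 (-0.67 ± 0.06). Cacna1h, a calcium channel of the egg, fell from 14.7 and 15.3 to 7.7 and 8.8 (-0.83 ± 0.07; GC-corrected -0.50). Plat fell by 0.52 ± 0.06.

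Several regulators of meiosis and cell division fell. Mos, the kinase that holds the oocyte at metaphase of the second meiotic division, was at 36.9 and 44.3 FPKM at 14 h and 20.9 and 16.4 at 17 h (-1.11 ± 0.13; GC-corrected -0.98). Bub1b, a spindle checkpoint kinase, went from 166 and 173 to 87.2 and 74.9 and was at 45.1 and 43 at 20 h (-1.06 ± 0.07; GC-corrected -1.03; -1.93 ± 0.07 from 14 to 20 h, adjusted p = 6.6e-05 in limma). Smc3, a cohesin subunit, went from 21 and 19.5 to 11.1 and 9.71 (-0.93 ± 0.07; GC-corrected -1.12). Espl1, the separase that cuts cohesin, fell by 0.65 ± 0.04 (GC-corrected -0.43) and Pkmyt1, a kinase that inhibits the mitotic kinase, by 0.62 ± 0.07 (GC-corrected -0.38). Other members of the cell cycle list rose, 25 of 74 higher and 15 lower (GC-corrected 14 and 15, and 19 and 17 with median-of-ratios scaling). Ccne2, the cyclin E2 of the start of S phase, went from 11.9 and 12 to 17.9 and 17.8 (0.56 ± 0.05; GC-corrected 0.25). Bub1, Ttk and Mad2l1 of the checkpoint and Ccnb1 were also called higher in both fits, with smaller changes when GC-corrected. Without 14 h replicate 2 the rises were 15.

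DNA replication genes rose more often than they fell, 20 of 60 higher and 5 lower with a median of 0.10 (GC-corrected 13 and 3, and 13 and 11 with median-of-ratios scaling). Orc6, of the origin recognition complex, went from 48.8 and 45.8 FPKM to 61.2 and 63 (0.39 ± 0.04). Rpa3, of the single-strand binding complex, went from 24.4 and 22.9 to 33.7 and 35.5 (0.54 ± 0.05; GC-corrected 0.19), and Tipin, of the fork protection complex, rose by 0.46 ± 0.04 (GC-corrected 0.23). The falls included Ticrr, a factor that loads Cdc45 at origins, from 27.4 and 25.8 to 15.3 and 14 (-0.84 ± 0.06), and the primase subunit Prim2 (-0.44 ± 0.07). Pcna, Gmnn and Chek1 were called higher in both fits, Pcna and Chek1 with smaller changes when GC-corrected. Without 14 h replicate 2 there were 11 rises and 2 falls.

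Of 39 histone methyltransferases and demethylases 4 were higher and 14 (35.9%) lower (GC-corrected 3 and 14, with 0 higher without 14 h replicate 2 and 9 lower without 14 h replicate 1). The list of chromatin assembly genes, histone variants and linker histones moved both ways, 13 of 50 higher and 17 lower (GC-corrected 12 and 15, and 8 and 10 without 14 h replicate 2). Among all protein-coding rows 17.9% were higher and 21.8% lower. Tet3 stood at 66.8 and 68.4 FPKM at 14 h, 23.9 and 24.1 at 17 h and 29.3 and 37 at 20 h, with a change of -1.48 ± 0.10 (GC-corrected -1.35). Among methyltransferases of histone H3 lysine 4, Kmt2b fell from 11.8 and 11.3 to 4.41 and 3.84 (-1.39 ± 0.09; GC-corrected -1.08), Kmt2d from 3.09 and 3.23 to 1.21 and 1.19 (-1.11 ± 0.08) and Setd1a by 1.05 ± 0.22 (not called without 14 h replicate 1, adjusted p = 0.073). The demethylase gene Kdm6b, whose enzyme acts on lysine 27, fell by 0.96 ± 0.08 (GC-corrected -0.64). Arid1a, of the BAF remodelling complex, went from 14.5 and 13.9 to 5.77 and 5.17 (-1.30 ± 0.07), and Ep400, a chromatin remodelling ATPase, from 25.5 and 25.7 to 13.9 and 13.6 (-0.87 ± 0.05). Trim28, the corepressor of KRAB zinc finger proteins, fell from 39.9 and 41.5 to 22.4 and 21.5 (-0.87 ± 0.04; GC-corrected -0.56).

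Falls of this size were also seen in Wnk2, a kinase gene (11.9 and 12.9 FPKM to 3.83 and 3.34; -1.66 ± 0.09, GC-corrected -1.28), and Atxn2l, an RNA-binding protein of stress granules (47.5 and 47.4 to 19.3 and 18.1; -1.32 ± 0.04). Anp32b, a histone chaperone, went from 49.7 and 52.5 to 20.8 and 15.9 (-1.47 ± 0.14), and Ncl, the nucleolar protein nucleolin, from 31.8 and 30.5 to 14.8 and 11.7 (-1.21 ± 0.15; GC-corrected -1.38). Fbrs, Cebpb, Prrc2a, Pom121 and Lama5 fell by 1.28 to 1.43, with GC-corrected values from -0.94 (Cebpb) to -1.07 (Fbrs). Wnk2 is of 62.4% GC, Atxn2l of 57.2%, Anp32b of 51.8% and Ncl of 42.8%, and all kept an adjusted p of at most 0.0024 when GC-corrected.

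From zygote to 2-cell embryo the genes of the larger falls went both ways, and 2 sets of embryos gave medians of different sign. Kmt2b stood at 3.24 and 3.6 FPKM in zygotes and 11.1 and 17.5 in E2-cell embryos, and Arid1a at 4.28 and 5.96 and then 25 and 22.7. Bub1b did the opposite, 270 and 280 in zygotes and 19.8 and 25.9 in E2-cell embryos. Among the 46 protein-coding rows that fell by 1 or more, both E2-cell columns were above both zygote columns in 24 and below in 17, against 23.5% and 46.1% of all described protein-coding rows. Their median change was 0.63, with 58.7% up. From Late1c to Early2c controls of the MT2Mm experiment, another 1-cell to 2-cell step, the median of the same 46 was -0.31, with 67.4% down, beside -0.34 for all described protein-coding rows. Kmt2b changed by -0.11 there and Arid1a by 0.46. In MII oocytes the 2 columns differ widely for several of them, such as 5.74 and 12.6 for Kmt2b and 4.44 and 25.6 for Arid1a, so no change into the zygote is read for those.

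Protein-coding rows as a whole were lower in 21.8% and higher in 17.9%. Factors that shorten poly(A) tails and degrade RNA also fell more often than they rose. Of 66 described, 8 were higher and 19 (28.8%) lower (GC-corrected 3 and 21, and 4 and 9 without 17 h replicate 2). Upf1, the helicase of nonsense-mediated decay, went from 53.8 and 53.5 FPKM at 14 h to 26.9 and 28.2 at 17 h (-0.95 ± 0.05; GC-corrected -0.68). Cnot3, of the CCR4-NOT deadenylase complex, went from 26.8 and 27.5 to 16.3 and 15.3 (-0.76 ± 0.05), and Tob2, which recruits that complex, from 24.9 and 25.1 to 16.3 and 16.2 (-0.61 ± 0.04). Pan2 and Edc4 were lower in both fits, with smaller changes when GC-corrected. From 14 to 20 h limma did not call Pan2 (-0.09 ± 0.04, adjusted p = 0.12). Btg4, the adaptor by which maternal RNA is deadenylated, was called higher as deposited but not when GC-corrected.

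Proteins that store RNA or hold back its translation moved both ways, 13 of 46 higher and 16 lower (GC-corrected 4 and 13, and 4 and 10 without 14 h replicate 2). Lsm14b, a protein of oocyte RNA granules, fell from 347 and 352 FPKM to 194 and 177, with 120 and 126 at 20 h (-0.91 ± 0.05; GC-corrected -0.90; -1.50 ± 0.05 from 14 to 20 h). Igf2bp2, an RNA-binding protein of the egg, fell from 67.2 and 65.4 to 38.8 and 36.1 (-0.82 ± 0.05), Zar1 from 180 and 198 to 118 and 110 (-0.73 ± 0.05) and Ybx2 from 98.1 and 98.9 to 68.7 and 63.5 (-0.57 ± 0.05; GC-corrected -0.17, adjusted p = 0.085). Zar1 and Ybx2 proteins bind stored oocyte RNA.

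Genes of the translation and energy machinery differed by group. Of 76 described cytosolic ribosomal protein genes 3 were higher and 37 (48.7%) lower with a median of -0.23, beside 21.8% lower and a median of -0.01 over protein-coding rows (GC-corrected 2 and 29, and 11 lower without 14 h replicate 2). Rpl36 went from 46.4 and 47.4 FPKM to 31.9 and 28.2 (-0.64 ± 0.06; GC-corrected -0.29) and Rps18 from 5.38 and 5.6 to 3.13 and 3.09 (-0.73 ± 0.06). Rps27l, a p53-responsive member, was higher, 29.3 and 31.5 against 46.3 and 46.3 (0.60 ± 0.06). Of 87 nuclear respiratory chain genes 4 were higher and 26 (29.9%) lower (GC-corrected 6 and 22, and 10 lower without 14 h replicate 2), with Cox7c from 6.68 and 6.75 to 3.2 and 2.89 (-1.03 ± 0.12; GC-corrected -1.30). Mitochondrial ribosomal protein genes gave 4 of 72 higher and 14 (19.4%) lower, a share of falls below that of protein-coding rows (GC-corrected 1 and 12, and 2 higher and 6 lower without 14 h replicate 1, without 14 h replicate 2 or without 17 h replicate 2). Translation initiation factors moved both ways, 12 of 48 higher and 16 lower (GC-corrected 5 and 11, and 4 and 5 without 14 h replicate 2). Elongation factors and aminoacyl-tRNA synthetases gave 5 of 25 higher and 5 lower with a median of 0.01 (GC-corrected 4 and 3, and 1 and 2 without 14 h replicate 2). Among 136 solute carriers 6 were higher and 37 (27.2%) lower (GC-corrected 10 and 38, and 23 lower without 14 h replicate 2), with the amino acid transporter Slc7a5 going from 8.05 and 9.07 to 4.08 and 3.82 (-1.03 ± 0.08).

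Autophagy, lysosome and ubiquitin genes gave 3 of 39 higher and 12 (30.8%) lower (GC-corrected 2 and 11), with Ulk1, the kinase that starts autophagy, falling by 0.93 ± 0.09. Actin, tubulin and motor genes gave 5 of 47 higher and 13 (27.7%) lower, but 5 and 7 GC-corrected with a median of -0.00, and 2 higher without 14 h replicate 2. Rdx, which ties actin to the membrane, fell from 285 and 288 FPKM to 211 and 206 (-0.46 ± 0.03), while Cdc42, a regulator of polarity, rose from 48.1 and 46.6 to 64.8 and 65.5 (0.46 ± 0.04; GC-corrected 0.27). Spliceosome genes gave 15 of 70 higher and 17 (24.3%) lower as deposited, but 4 and 20 GC-corrected, 5 and 10 without 14 h replicate 2, 9 and 18 without 17 h replicate 1, and 12 and 21 with median-of-ratios scaling. Mediator subunits gave 5 of 29 higher and 7 (24.1%) lower (GC-corrected 4 and 8). The shares of falls in these last 2 lists lie near the 21.8% of protein-coding rows.

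For 4 groups the counts depend strongly on GC. Genes of the Zfp name, mostly KRAB zinc finger repressors, had a median of 43.7% GC and 93 of 209 higher against 29 lower, and 40 against 18 GC-corrected, or 57 and 15 without 14 h replicate 2. Zfp982 on chromosome 4 went from 35.7 and 32.5 FPKM to 52.5 and 54.7 (0.65 ± 0.06; GC-corrected 0.38) and Zfp873 from 14.1 and 13.6 to 21.5 and 23.6 (0.68 ± 0.06; GC-corrected 0.47). Of 14 olfactory and vomeronasal receptors 7 were higher and 1 lower, and 0 and 1 GC-corrected (1 and 1 at an unadjusted p under 0.05 in limma), or 2 and 0 without 14 h replicate 2. Core histone genes are of 59.4% median GC, and 1 of 58 was higher and 7 lower as deposited against 24 and 4 GC-corrected. With 1 column left out 0 to 3 were higher, and 3 were lower without 14 h replicate 2 or without 17 h replicate 2. Hist2h3b fell in both, from 75.6 and 79.7 to 50.5 and 49.9 (-0.62 ± 0.05; GC-corrected -0.14), and Hist2h2bb rose in both, from 27.5 and 32.6 to 37.9 and 40.2 (0.38 ± 0.08; GC-corrected 0.57; not called without 17 h replicate 2, adjusted p = 0.077). At 20 h Hist2h3b was at 74.4 and 80.1, not called from 14 h in limma (-0.01 ± 0.05, adjusted p = 0.92). Histone gene copies are alike, and reads may be shared.

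Counts of mitochondrial genome rows, of 35.6% median GC, turned with the correction. As deposited 13 of 37 were higher and 4 lower, and GC-corrected 6 and 13, so no direction is given for the group. Without 14 h replicate 1 there were 8 rises and 2 falls, and without 17 h replicate 1 the falls were 8. The transfer RNA mt-Tg went from 2.05 and 1.72 FPKM to 13.9 and 18.6, with 2.72 and 2.47 at 20 h (2.80 ± 0.14; GC-corrected 2.39; not called from 14 to 20 h, 0.38 ± 0.14, adjusted p = 0.082 in limma), and mt-Tr from 3.88 and 3.79 to 10.4 and 18.5 (1.73 ± 0.23; adjusted p = 0.0032, and 0.011 GC-corrected). At 20 h mt-Tr was at 4.31 and 4.22, not called from 14 h in limma (0.13 ± 0.23, adjusted p = 0.68). These transfer RNAs flank mt-Nd3, a subunit of complex I, which went from 194 and 195 to 327 and 350 (0.80 ± 0.07; GC-corrected 0.43). On the other strand mt-Nd6 fell, from 39.6 and 39.2 to 20.8 and 14.6 (-1.15 ± 0.15; GC-corrected -1.50). The transfer RNAs are shorter than a read pair, and their FPKM is correspondingly uncertain.

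Noncoding rows rose more often than protein-coding ones. Among protein-coding rows 1648 of 9183 (17.9%) were higher and 2003 (21.8%) lower. Small RNA rows gave 82 of 181 higher and 6 lower with a median of 0.62 (GC-corrected 90 and 3). Some of them, such as Rnu1b2, Gm24407, Gm23472 and Rny3 below, are shorter than a read pair, and their FPKM is correspondingly uncertain. Pseudogenes gave 171 of 717 higher and 41 lower (132 and 30), and annotated lncRNAs 210 of 735 and 29 (127 and 32). XLOC rows, which have no position, gave 445 of 1537 higher and 36 lower and have no GC value. Their share of the FPKM sum was 2.2% and 2.11% at 14 h and 2.52% and 2.51% at 17 h, and that of protein-coding rows 57.1% and 55.5% against 53.4% and 51.2%.

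**Figure D4:**
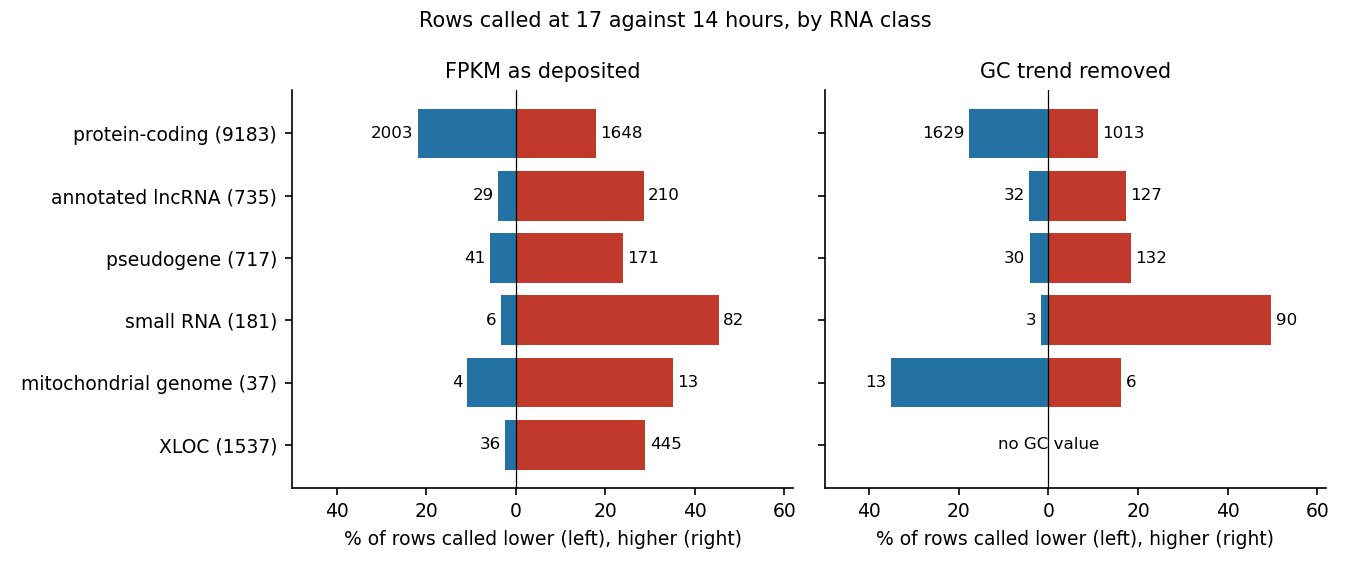
Percent of rows called higher (right, red) and lower (left, blue) at 17 h by RNA class, as deposited and with the GC trend removed; numbers at the bars are rows. Annotated lncRNA, pseudogene and small RNA rows lean to the right in both panels, XLOC rows are shown as deposited only, and the mitochondrial genome turns from 13 higher and 4 lower to 6 and 13.

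Of the 82 small RNA rows that rose, 36 were spliceosomal snRNAs, 26 snoRNAs and 5 scaRNAs, which guide the modification of other RNAs, and 7 were miRNAs. Spliceosomal snRNA rows were higher in 36 of 47 and lower in 0, with a median of 0.96, and GC-corrected in the same numbers. At an unadjusted p under 0.05 limma gave 39 and 0. Rnu1b2, a U1 gene of the embryonic type, went from 51.9 and 50.4 FPKM to 108 and 102 (1.03 ± 0.04), and Gm24407 from 185 and 180 to 426 and 512 (1.35 ± 0.10). The small RNA row Gm23472 on chromosome 1 rose by 2.26 ± 0.26, from 74.1 and 47.5 to 238 and 344. The 47 snRNA rows hold 33 distinct sequences, so that reads of one copy can be counted for another. Of 69 snoRNAs 26 were higher and 0 lower (33 and 0 unadjusted in limma; GC-corrected 26 and 0), and of 12 scaRNAs 5 and 0 (7 and 1 unadjusted; GC-corrected 6 and 0). Among 35 miRNA rows 7 were higher and 5 lower (GC-corrected 9 and 3).

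Of 11 RNAs on the list of polymerase III transcripts and telomerase RNA, 5 were higher and 2 lower (GC-corrected 7 and 0, and 8 and 0 at an unadjusted p under 0.05 in limma). The 2 falls were Terc and Gm26917, a list member that is annotated as a lncRNA. Rny3, a Y RNA, rose from 1.27 and 2.36 FPKM to 6.64 and 9.92 (1.94 ± 0.30). It was at 2.58 and 3.88 at 20 h and not called from 14 to 20 h in limma (0.71 ± 0.30, adjusted p = 0.11). Rmrp, the RNA of RNase MRP, went from 17.6 and 21.7 to 38 and 35.2, and was at 183 and 213 at 20 h (0.89 ± 0.12; GC-corrected 1.31). Rpph1, the RNA of RNase P, rose from 380 and 394 to 489 and 549 (0.42 ± 0.06; GC-corrected 0.90). Rn7s2, one of the most abundant rows, a 7SL RNA of the signal recognition particle, was at 40784 and 43885 and then 46499 and 52403 (0.22 ± 0.11, adjusted p = 0.14; GC-corrected 0.61). Terc, the telomerase RNA, was lower as deposited (-0.55 ± 0.12) and not called GC-corrected (-0.07) or without 14 h replicate 2 (adjusted p = 0.09).

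Single noncoding rows showed larger changes. The pseudogene Bnip3l-ps went from 0.915 and 0.885 FPKM to 8.4 and 7.57 and stayed at 7.55 and 8.24 at 20 h (2.60 ± 0.08; 2.58 ± 0.08 from 14 to 20 h). AA645442, a lncRNA on chromosome 2 (27326704 to 27331297), was at 0.601 and 0.67, then 2.34 and 2.38, then 0.667 and 0.713 (1.33 ± 0.11). Gm14004 on chromosome 2 went from 11.2 and 10.2 to 18.5 and 23 and back to 9.23 and 8.93 (0.92 ± 0.10). XLOC_043018 rose from 2.55 and 4.5 to 19.5 and 19.8 (2.37 ± 0.26). XLOC_045261 was at 15.1 and 30 at 14 h and is listed at 0 in both 17 h and both 20 h columns, and 2010309G21Rik, at 2.47 and 3.16, is likewise listed at 0. Of 11 described snoRNA host and nuclear lncRNAs limma called 0 (2 higher at an unadjusted p under 0.05), and GC-corrected 1 was lower.

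X-linked rows leaned upward, 121 of 379 (31.9%) higher and 32 (8.44%) lower, beside 20.8% and 17% of all described rows. Their median GC was 45.2%, and GC-corrected 65 were higher and 37 lower, beside 12.7% and 15.7%. Chromosomes 3 (26.9% higher, 14.7% lower) and 14 (24.2%, 11.2%) leaned upward too, and 7 (15.9%, 25.6%) and 11 (14.2%, 24.2%) downward. On the X the clustered Xlr3c and Xlr5c, members of a lymphocyte-regulated family, rose by 0.73 ± 0.08 and 0.77 ± 0.10. Promoter windows of 1609 protein-coding rows that fell had a median of 63.7% GC, 24 CpG and 72.4% with GGGCGG, and those of 1305 that rose 59%, 20 CpG and 58.9%. All 7254 described protein-coding rows with a window had 61%, 21 CpG and 64.8%, and the 4340 not called 60.7%, 21 CpG and 63.8%. With the GC trend of the transcripts removed these were 64.7%, 26 and 73.2% for 1291 falls and 59.3%, 19 and 60.9% for 796 rises. As deposited CCAAT stood in 39.3% of falls and 44.5% of rises, against 40.7% of all described protein-coding rows. TATAAA stood in 5.28% and 6.9%, against 6.7%.

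The medians of called rows had the same sign between oocyte and zygote in the stage series. Rows called higher had a median change from MII to Zygote of 0.16, with 65.6% up, rows called lower -0.23, with 68.2% down, and rows not called 0.00, with 50% up. For the 75 rises of 1 or more the median was 0.96 (85.3% up), and for the 61 falls -0.64 (72.1% down). In single pairs of an MII and a zygote column the 75 rises had medians from 0.20 to 1.94, and the 61 falls from -0.82 to -0.00. The names of these columns end in tags that the labels do not explain, and only MII replicate 1 and zygote replicate 2 share a tag. In that pair the 75 rises had a median of 1.04 and the 61 falls of -0.00, with 50.8% down. All rows called higher had a median of 0.09 there, and all called lower -0.06. From Zygote to E2-cell rises had a median of -0.00 and falls of -0.37, against -0.24 for all rows. From Late1c to Early2c controls of the MT2Mm experiment they were -0.14 and -0.50, against -0.31. GC of the transcript went with the MII to Zygote change at a rho of 0.02 in protein-coding rows and with the Zygote to E2-cell change at -0.24.

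**Figure D5:**
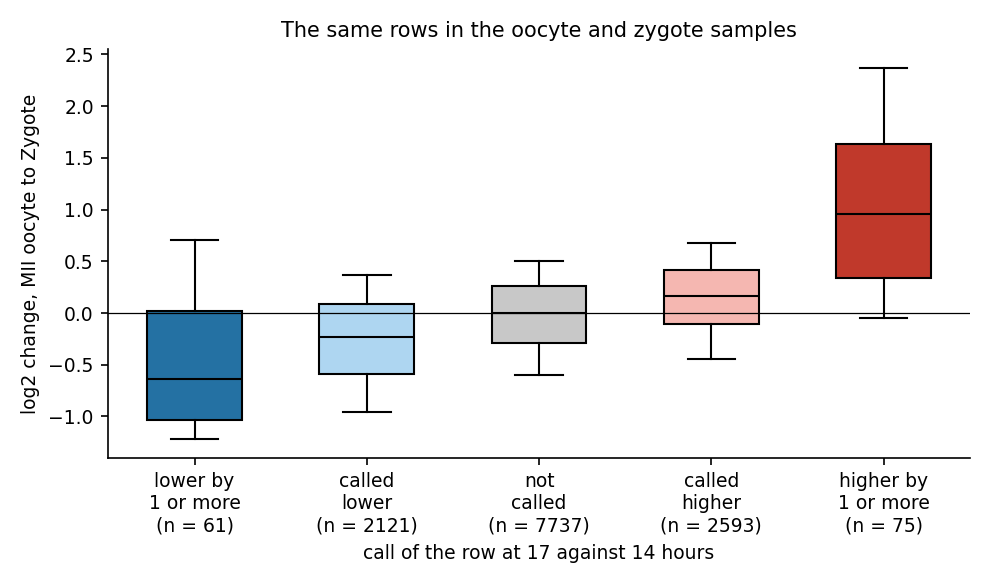
Log2 change from MII oocyte to Zygote in C57BL/6 samples, for rows grouped by their call at 17 against 14 h; boxes span the 25th to 75th percentile with the median as a line, and whiskers the 10th to 90th. Medians order from -0.64 through 0.00 to 0.96.

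Depth differed between columns, and 14 h replicate 1 was the shallowest. From the smallest step between values of single-exon genes the 14 h columns held about 14900000 and 28200000 fragments and the 17 h columns 23300000 and 29100000. Replicates correlated at 0.989 and 0.99. Most markers of other cells were low at both times. Of 28 cumulus and granulosa cell genes 5 reached 1 FPKM and 8 to 13 were at 0, with summed levels of 52.5 to 53.3 FPKM at 14 h and 54.6 to 55.6 at 17 h, and 26 sperm and testis genes, 15 to 18 of them at 0, summed to 28.1 to 29.4 and 29.7 to 30. Esr2 of the first list was called higher (0.23) and Col4a2 lower (GC-corrected -0.03, not called), the latter in none of the 4 fits without 1 column. Esr2 itself stood at 22 and 21.2 FPKM at 14 h and 25.4 and 25.4 at 17 h, a large part of the sum of its list. Blood genes summed to at most 2.19 FPKM. The 33 blastocyst lineage genes summed to 188 and 194 FPKM at 14 h and 181 and 181 at 17 h. Of 10 described, 1 was higher and 4 lower (GC-corrected 1 and 3). The oocyte genes Gdf9 and Zp3 were present at both times, as given above. The part of other cells in the results was not tested.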

How the data were processed

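Total RNA of pooled mouse embryos was sequenced in 57 samples, on an Illumina NovaSeq with pairs of 150 bp reads per the labels' protocols, with a stranded kit for rRNA-depleted RNA or one for small amounts. The kit of a single library is unknown here. The authors deposited 1 table of FPKM. The submitters' processing notes name cutadapt 1.18, HISAT2 2.1.0, Cufflinks, StringTie 1.3.4d, Cuffdiff 2.2.1 and GRCm38. Of its 43 columns 23 were not used. Nothing says that replicates were separate cultures, so p-values measure the spread between these columns.

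Rows of at least 1 FPKM in 2 of the 6 columns of 14, 17 and 20 h (12834) were fitted together with limma 3.58.1 in R 4.3.3, as log2(FPKM + 0.5) with a mean trend. Fold changes are on that scale, which understates low rows. Adjusted p-values are Benjamini-Hochberg over all rows tested, two-sided, called under 0.05. The fit was tested on simulated data. The same fit gave 20 against 14 h for rows named in the text.

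Members and lists were chosen with earlier results of these data known. Genes named are up to 6 per list, the 20 largest protein-coding and 5 largest other changes each way above a minimum FPKM, the 10 highest rows and large changes of abundant rows. Further list members named without values, and Zscan4d, were chosen after their values were seen. Annotation is GENCODE M21. Other settings included pseudocounts, filters, scalings, left-out columns and a replicate block. Same-numbered columns did not deviate together, with correlations of -0.0716, 0.0343 and -0.0249.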

Additional observations from a re-analysis of the deposited data

How the results depend on the processing

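The main fit called 4752 of the tested rows. Removing the GC trend gave 3126 calls among 11179 rows, 1414 of them higher, partly in other rows than the main fit. With no filter on low values 2898 of 34194 rows were called, 1556 higher and 1342 lower. Of the 4714 described calls, 2734 were called again in the same direction without the filter. With 1 column left out the totals ranged from 2580 (without 14 h replicate 2) to 3324, rises from 1419 to 1713 and falls from 1161 to 1630; without 17 h replicate 2 the total was 2800. The remaining column of a time is then assumed to vary like the others. Of 4232 described calls with a GC value, 2277 kept their direction with the trend removed and 7 turned. With the replicate block 4474 rows were called, 2466 higher and 2008 lower. No called value of a named gene changed sign under the settings run. Named genes lost their call 46 times in single settings, and 310 counts of list members moved by over 1.5 times, most often without 14 h replicate 2. The cause was not tested. The shallowest column, 14 h replicate 1, limits rows near 1 FPKM.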
